A study of Mus musculus with 12 samples.

Results

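The 51 genes described here encode chemokines (32 ligands) and their receptors (19 genes, of which 4 are atypical receptors). They were chosen as a list of family members by gene symbol, with earlier results of these data known. All 51 were found among the 54232 Ensembl gene identifiers counted in each library. Every one of them reached the minimum of 15 counts summed over the 12 libraries. After a filter on low counts 50 of the 51 were tested, the exception being Ccl28, which had 0 to 13 counts per library.

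The 12 libraries each held poly(A) RNA of a wound on the back of a male C57BLKS/J mouse with the db/db mutation of Lepr, which encodes the receptor of leptin. Such mice are obese and diabetic and heal slowly. The age label of all mice was 12.5 weeks. Each wound was a full-thickness punch of 6 mm and was collected on day 10. In the group called TD the wound was covered with Tegaderm film alone (5 libraries), in the group Strain it wore a patch built to apply about 30% strain (4 libraries), and in the group No Strain it wore a patch without strain (3 libraries). All groups therefore shared the mutation, the mouse background, the sex, the wound and the day, and no wound of lean mice and no unwounded skin was analysed here. The labels do not say whether any of the wounds came from the same mouse, and the biopsy is a mixture of cell types.

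Chemokines are small secreted or membrane-bound proteins that bind G protein-coupled receptors on leukocytes and direct their migration along gradients. In skin wounds, CXC ligands of CXCR2 recruit neutrophils early, CC ligands of CCR2 bring in monocytes, and interferon-induced CXC ligands of CXCR3 attract T cells and NK cells. Atypical receptors bind chemokines without G protein signalling, and some of them remove chemokines from the tissue. In wounds of db/db mice inflammation is known to last longer than in lean mice.

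Library totals ran from 20354677 to 25059371 counts, so that 3 counts, the floor of detection used here, correspond to at most 0.147 CPM of the unscaled total (CPM, counts scaled to a common library total by the TMM method of edgeR). The 51 genes together took 0.161% to 0.238% of all counts in TD, 0.209% to 0.386% in Strain and 0.246% to 0.355% in No Strain. Differences were tested with the quasi-likelihood test of edgeR in a single fit of the 12 libraries, and adjusted p-values (Benjamini-Hochberg) refer to all 18618 genes tested. "Rose", "fell" and "called" are used for an adjusted p under 0.05. Fold changes are on the log2 scale unless stated otherwise, with the standard error (SE) in parentheses. Within every group values are given in the order of the replicates.

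Against TD, more chemokine genes rose than fell under either patch, although most members were not called. In Strain 14 of the 50 tested members rose and 4 fell, while 12.6% of all genes tested were called (6.2% higher and 6.41% lower). In No Strain 17 rose and 6 fell, against a background of 17.8% (9.35% higher and 8.4% lower). With the mean of the patch groups set against TD, 20 rose and 8 fell, against 24.4% of all genes (12.4% higher and 12.1% lower). These comparisons share the 5 TD libraries and are not independent of each other. The median change over the 50 tested members was 0.46 in Strain, 0.71 in No Strain and 0.65 for the mean of the patches, beside 0.018, 0.0045 and 0.011 over all genes tested.

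The libraries of some members did not overlap between groups at all. In Strain 15 of the 50 lay wholly above or below TD (14.6% of all genes tested), in No Strain 26 of the 50 (26.7%), and for the 7 patch libraries against TD 15 (11.0%). Ligands gave 9 rises and 3 falls among 31 tested in Strain and 13 rises and 4 falls in No Strain. Receptors gave 5 rises and 1 fall among 19 in Strain and 4 rises and 2 falls in No Strain. No member was called between Strain and No Strain, where 0.0% of all genes were called.

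**Figure D1:**
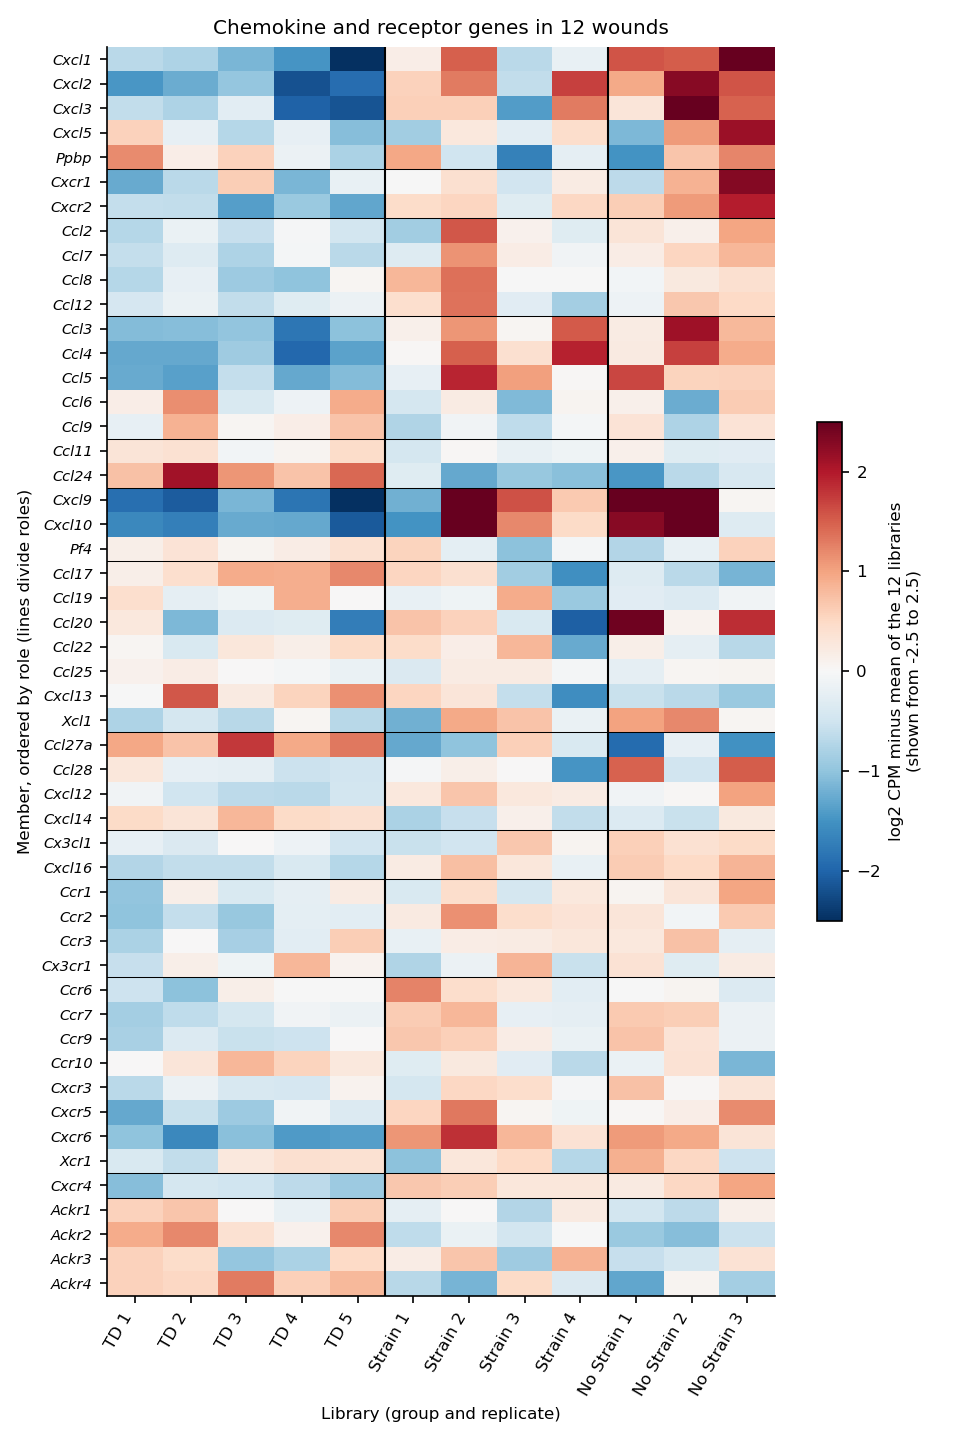
Each row is 1 of the 51 members, ordered by role, and each column 1 of the 12 libraries. Colour gives log2 CPM minus the member's mean over the 12 libraries, with the scale ending at -2.5 and 2.5. Rows of Cxcl1, Cxcl2, Cxcl9, Cxcl10, Ccl3, Ccl4, Ccl5 and Cxcr6 are low in the 5 TD libraries, and Ccl24, Ccl27a, Ackr2 and Ackr4 are high there.

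Markers of some cell types, on lists chosen with earlier results of these data known, differed between TD and the patch groups. None of the 9 tests of summed marker levels gave an adjusted p under 0.05. Over all genes tested 12.6% were called in Strain and 17.8% in No Strain. Of 12 neutrophil markers 10 rose in Strain and 8 in No Strain. Their summed level was 459 to 1684 CPM in TD, 874 to 8865 CPM in Strain and 2099 to 5373 CPM in No Strain. The log2 sum was higher by 2.08 in Strain (two-sided exact permutation p = 0.0317, adjusted over 9 such tests 0.0952) and by 2.44 in No Strain (exact p = 0.0179, the smallest its 56 splits allow, adjusted 0.0804). A sum weighs abundant genes most, and this sum did not closely follow Cxcr2 within the patch groups. In Strain replicates 1 and 4 it was 8865 and 1418 CPM, with Cxcr2 at 28.8 and 30.1 CPM. Strain replicate 1 and No Strain replicate 1 held the highest neutrophil sums of their groups. They also held the highest keratinocyte marker sums there (22122 and 23357 CPM). The part of neutrophils in the neutrophil sum was not tested. Of 10 monocyte and macrophage markers only Ly6c2 rose, in either patch group, and the log2 sum differed from TD by 0.47 in Strain and 0.56 in No Strain (exact p = 0.119 and 0.143). Of 9 T and NK cell markers 5 rose in each patch group, with sums of 23.3 to 33.4 CPM in TD, 44.5 to 107 CPM in Strain and 50.4 to 77.0 CPM in No Strain. Among 6 endothelial markers 3 rose in each.

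Markers of muscle and fat went the other way. Of 10 skeletal muscle markers 7 fell in Strain and 3 in No Strain, and their log2 sum differed from TD by -1.43 in Strain (exact p = 0.0159, adjusted 0.0804) and by -0.77 in No Strain (exact p = 0.0714, adjusted 0.161), with 6399 to 15087 CPM in TD, 2839 to 5425 CPM in Strain and 4014 to 8930 CPM in No Strain. Of 6 adipocyte markers 4 fell in Strain and all 6 in No Strain. None of 8 keratinocyte, 6 fibroblast, 5 B cell, 6 tested eosinophil and mast cell and 2 tested platelet markers was called in Strain or in No Strain, and no listed marker was at 0 counts in all libraries. In such bulk samples fewer cells of a type and less RNA per cell cannot be told apart, and the part of these cell types in the chemokine values was not tested.

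With the mean level of the skeletal muscle markers as a covariate, 0 members were called in Strain, 9 in No Strain and 0 for the mean of the patches. The same fits called 1, 491 and 14 of all 18618 genes. Muscle level and group are confounded in these libraries and cannot be fully told apart. Without Strain replicate 2 the Strain count was 10 in place of 18, and over all genes 882 of 18584 were called in place of 2349 of 18618. With the letter of the sample titles as a covariate the Strain count was 9, beside 798 of 18618 genes. The letter was R in most TD libraries and L in most Strain libraries, so it partly overlaps this comparison. At least 1 left-out library ended the Strain calls of Ccl8, Ccl27a, Ccr9, Cxcl9, Cxcl10, Cxcl12, Cxcl14 and Cxcr2 and the No Strain calls of Ackr4, Ccl5, Ccl7, Ccl17, Ccl20, Ccl27a, Ccr2, Cxcl3, Cxcl12, Cxcl13 and Xcl1. For the mean of the patches this ended the calls of Ccl7, Ccl8, Ccl11, Ccl17, Ccr7, Ccr9, Cxcl13, Cxcr5 and Xcl1. Ccl11, Ccr7 and Cxcr5, called only for that mean, also lost the call with the title letter as a covariate.

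**Figure D2:**
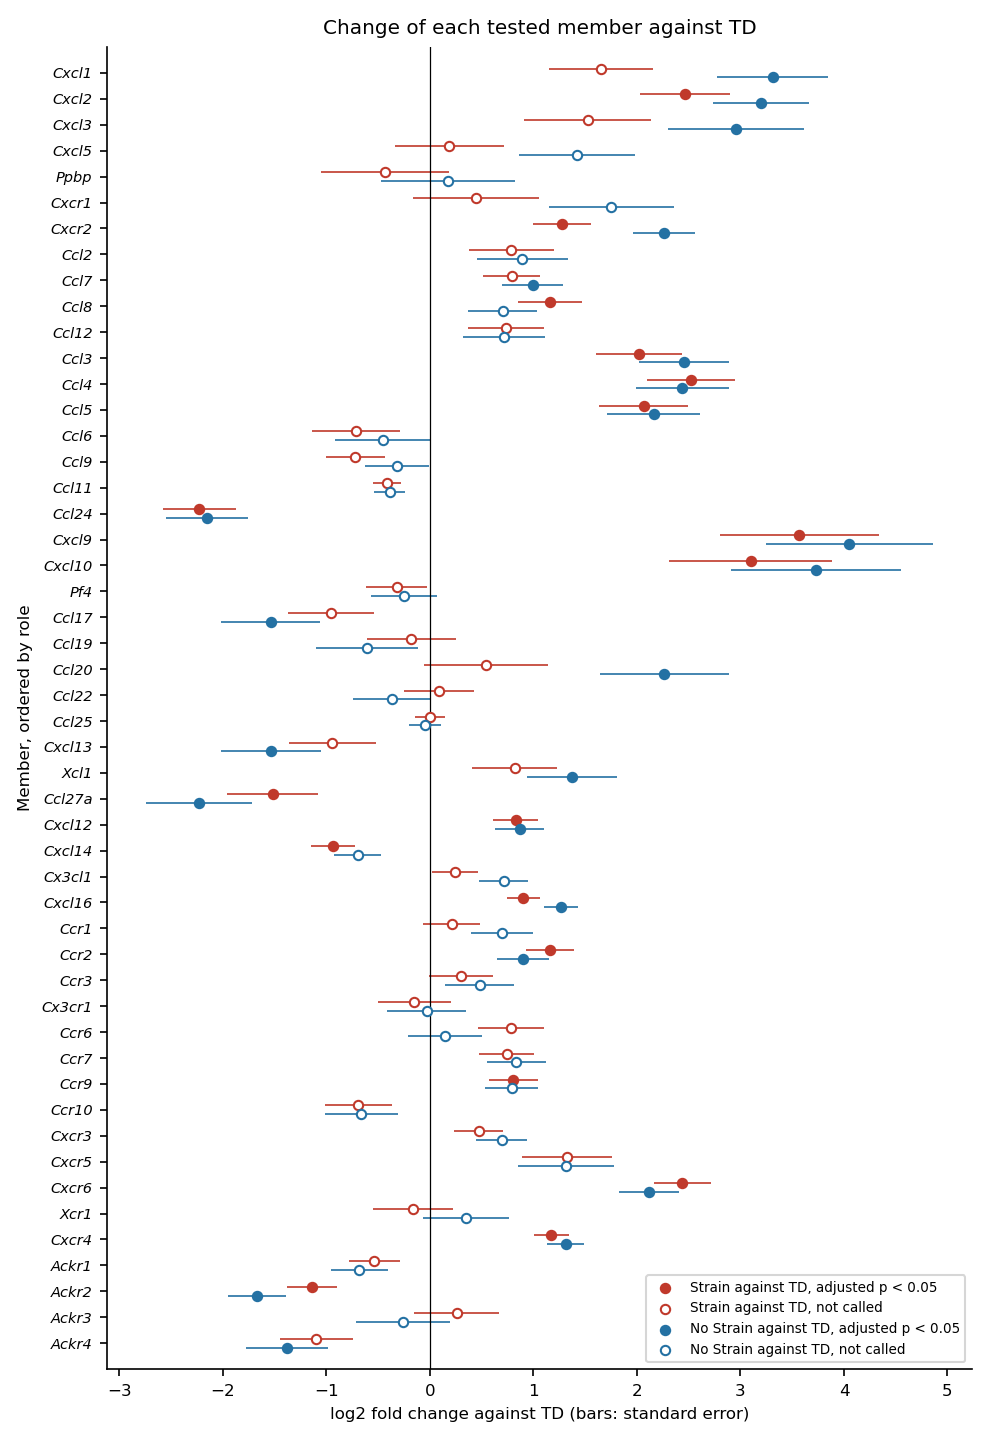
Each row is 1 of the 50 tested members and points give its log2 fold change against TD in Strain (red) and No Strain (blue), with bars of 1 standard error. Filled points passed an adjusted p of 0.05. Cxcl9 in No Strain lies farthest to the right at 4.05, and Ccl24 and Ccl27a lie farthest to the left.

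Cxcl1, Cxcl2 and Cxcl3, ligands that recruit neutrophils through CXCR2, were higher in the patch groups. Their genes lie close together on chromosome 5, where Cxcl5, Ppbp, Pf4, Cxcl3, Cxcl1 and Cxcl2 follow each other on the plus strand at chr5:90759360-90905938 (GRCm38). The stretches before their start sites are shown because these genes are known targets of NF-kB and all 3 rose in No Strain. Sequences are from RefSeq promoters on GRCm38.p6, 5′ to 3′ on the gene's strand. Capitals mark matches to the NF-kB motif GGNNTTTCC on either strand.

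Cxcl1, chr5:90891141-90891198, plus strand: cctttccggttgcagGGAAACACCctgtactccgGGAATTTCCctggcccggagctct

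Cxcl2, chr5:90903788-90903845, plus strand: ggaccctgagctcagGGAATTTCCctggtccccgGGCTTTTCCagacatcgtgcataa

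Cxcl3, chr5:90786014-90786052, plus strand: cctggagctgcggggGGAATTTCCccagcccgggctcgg

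The matches began 89 and 70 bases before the start of Cxcl1, 96 and 77 bases before that of Cxcl2 and 72 bases before that of Cxcl3. Each of the 3 stretches holds the same 9 letters GGAATTTCC on the plus strand. Within 250 bases before the start, the motif was found in 9 of the 40 members with a RefSeq promoter (Ackr4, Ccl9, Ccl20, Ccr3, Cxcl1, Cxcl2, Cxcl3, Cxcl9 and Cxcl10) and in 4.93% of all 32851 promoters. A match of letters does not show binding.

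Cxcl2 was at 15.6, 18.2, 21.9, 9.45 and 11.5 CPM in TD, 64.7, 106, 28.1 and 140.4 CPM in Strain and 82.9, 210.3 and 128 CPM in No Strain. Every patch library lay above every TD library, and the largest values were those of No Strain replicate 2 and Strain replicate 4. The change was 2.46 (SE 0.44, adjusted p = 0.00893) in Strain and 3.19 (SE 0.46, adjusted p = 0.00273) in No Strain. Some Cxcl2 reads could belong to Cxcl3, with which it shares 5.84% of its 50-base stretches.

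Cxcl1 measured 9.50, 8.83, 6.82, 5.41 and 2.28 CPM in TD, 17.1, 42.9, 9.46 and 13.4 CPM in Strain and 44.9, 43.1 and 108 CPM in No Strain. All No Strain values lay above all others, whereas the lowest Strain value was just under the highest of TD. It rose in No Strain, by 3.31 (SE 0.54, adjusted p = 0.00393), and its change in Strain was 1.65 (SE 0.50, adjusted p = 0.0525), which was not called.

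Cxcl3 measured 14.1, 12.7, 18.1, 5.29 and 4.82 CPM in TD, 32.7, 32.7, 8.14 and 53.4 CPM in Strain and 27.0, 169 and 60.8 CPM in No Strain. No Strain replicate 2 stood highest and Strain replicate 3 fell inside the TD range. The change was 2.96 (SE 0.66, adjusted p = 0.013) in No Strain and 1.52 (SE 0.62, adjusted p = 0.123) in Strain. Of the remaining ligands of CXCR2, Cxcl5 averaged 66.8 ± 29.9 CPM in TD, 76.0 ± 28.0 CPM in Strain and 179 ± 153 CPM in No Strain, with the highest value, 340.1 CPM, in No Strain replicate 3, and was not called. Ppbp, which platelets carry, was not called and lay at 2.81 CPM on average in TD.

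Cxcr2, the receptor of these ligands on neutrophils, was at 13.8, 13.6, 8.01, 10.9 and 8.51 CPM in TD, 28.8, 30.7, 17.1 and 30.1 CPM in Strain and 32.1, 44.1 and 81.7 CPM in No Strain. The 3 groups did not overlap: TD was lowest, Strain in the middle and No Strain highest. It rose by 1.28 (SE 0.28, adjusted p = 0.0175) in Strain and by 2.26 (SE 0.30, adjusted p = 0.00228) in No Strain. Neutrophil markers rose in both patch groups, 10 of 12 in Strain and 8 of 12 in No Strain. A link between these markers and Cxcr2 was not tested. Cxcr1, a related receptor, was near the limit of detection at 0.329, 0.534, 1.43, 0.363 and 0.789 CPM in TD, 0.894, 1.22, 0.623 and 1.05 CPM in Strain and 0.540, 1.72 and 4.79 CPM in No Strain, and its change of 1.75 (SE 0.60, adjusted p = 0.0664) in No Strain was not called.

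Cxcl9 and Cxcl10 showed the largest rises of all members. These are interferon-induced ligands of CXCR3 on activated T and NK cells, and their genes are neighbours on the minus strand at chr5:92321347-92348889. In the stretches below, printed because both genes are known to respond to interferon and to NF-kB, capitals mark the NF-kB motif and a form of the interferon response element, GAAANNGAA, a motif added after the values had been seen.

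Cxcl9, chr5:92328098-92328269, minus strand: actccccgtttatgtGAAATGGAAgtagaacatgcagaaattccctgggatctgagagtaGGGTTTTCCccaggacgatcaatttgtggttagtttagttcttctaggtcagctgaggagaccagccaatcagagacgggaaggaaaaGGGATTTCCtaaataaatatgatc

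Cxcl10, chr5:92349024-92349117, minus strand: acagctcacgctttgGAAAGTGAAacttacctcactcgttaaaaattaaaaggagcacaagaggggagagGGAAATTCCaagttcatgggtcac

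The interferon motif began 175 bases before the start of Cxcl9 and 213 bases before that of Cxcl10, and matches to the NF-kB motif began at 130 and 42 bases and at 158 bases. On either strand the interferon motif was found in 7 of the 40 members with a promoter and in 7.13% of all promoters. A STAT motif searched in the same way, TTCNNNGAA, was found in 3 of the 40 and in 7.02% of all promoters, and in none of the 5 stretches printed here. The capital stretches do not overlap each other.

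Cxcl9 measured 10.0, 8.79, 16.9, 10.5 and 6.09 CPM in TD, 16.2, 309.7, 113 and 58.8 CPM in Strain and 255, 229 and 38.5 CPM in No Strain. Strain replicate 1 stayed within the TD range, and the highest values were those of Strain replicate 2 and No Strain replicates 1 and 2. The change was 3.57 (SE 0.77, adjusted p = 0.0161) in Strain and 4.05 (SE 0.81, adjusted p = 0.00839) in No Strain.

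Cxcl10 followed with 5.18, 4.85, 6.66, 6.54 and 3.68 CPM in TD, 5.61, 119, 37.1 and 22.4 CPM in Strain and 77.7, 124 and 12.8 CPM in No Strain. Again Strain replicate 1 lay among the TD libraries, and all No Strain values lay above them. The change was 3.10 (SE 0.78, adjusted p = 0.0284) in Strain and 3.73 (SE 0.82, adjusted p = 0.0128) in No Strain. In Strain the call of either gene was lost without Strain replicate 2, where the change was 2.58 for Cxcl9 (adjusted p = 0.0506) and 2.01 for Cxcl10 (adjusted p = 0.105), with limma-voom, at 2.93 (adjusted p = 0.0539) and 2.37 (adjusted p = 0.15), and with no filter on low counts (adjusted p = 0.0518 and 0.0886). The call of Cxcl10 in Strain was also lost without any 1 of the TD libraries (adjusted p = 0.0551 to 0.0623). An exon of Cxcl10 overlaps Art3 on the other strand, and since the strand setting of the counting is not given, their reads cannot be told apart.

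Cxcr3, the receptor of these ligands, was at 2.26, 3.33, 2.75, 2.71 and 3.90 CPM in TD, 2.68, 5.27, 4.98 and 3.59 CPM in Strain and 6.17, 3.73 and 4.60 CPM in No Strain. Values of the groups overlapped, and changes of 0.47 (SE 0.23, adjusted p = 0.203) and 0.69 (SE 0.25, adjusted p = 0.0755) in Strain and No Strain were not called. Pf4, which encodes platelet factor 4, averaged 65.2 ± 5.73 CPM in TD, 52.3 ± 22.6 CPM in Strain and 54.9 ± 25.1 CPM in No Strain and was not called. The 2 platelet markers that were tested were not called either. All 5 listed platelet markers together summed to only 9.25 to 14.8 CPM per library, and the cell source of Pf4 was not tested.

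**Figure D3:**
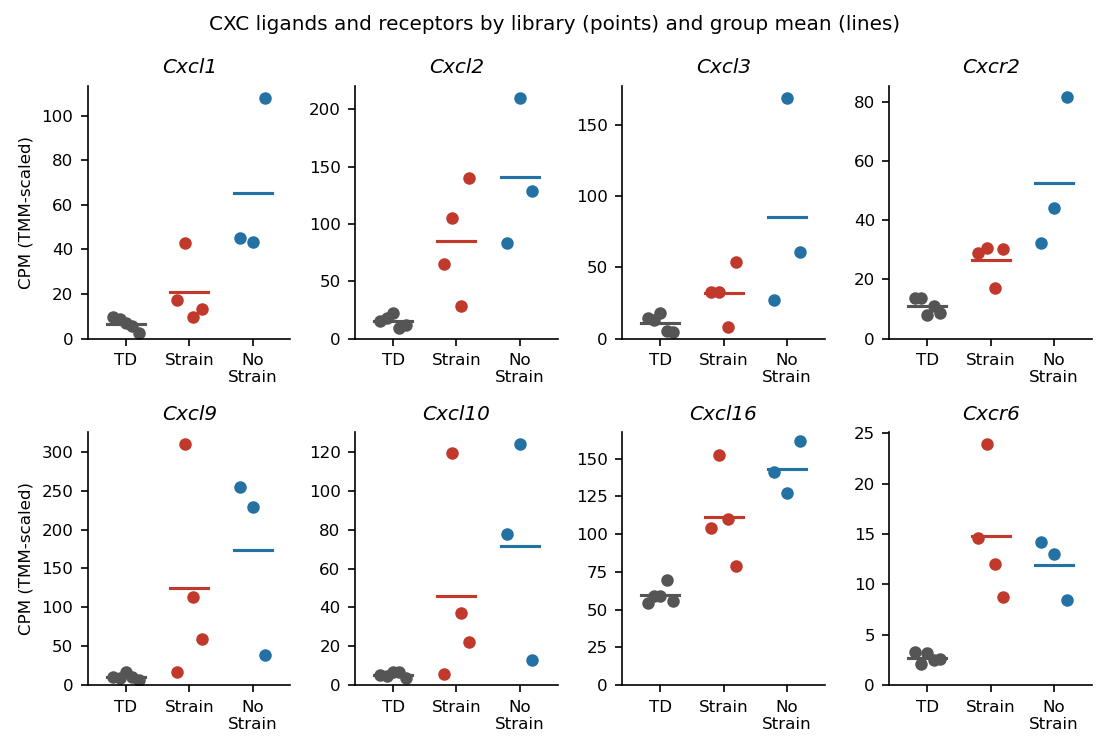
Points are CPM of single libraries on linear axes from 0 and lines are group means, for CXC ligands and receptors in TD (grey), Strain (red) and No Strain (blue). Cxcl9 and Cxcl10 spread widely within the patch groups, and the 3 groups of Cxcr2 do not overlap.

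Libraries with high values were partly shared between the ligands of CXCR2 and of CXCR3. Over the 7 patch libraries the highest value exceeded the lowest 19.1-fold for Cxcl9, 22.1-fold for Cxcl10, 20.8-fold for Cxcl3 and 11.4-fold for Cxcl1. The same ratio over the 5 TD libraries was 2.78, 1.81, 3.75 and 4.17. No Strain replicate 3 held the highest Cxcl1, Cxcl5, Cxcr1 and Cxcr2 of the 12 libraries, yet the lowest Cxcl9 and Cxcl10 of its group. No Strain replicate 2 held the highest Cxcl2 and Cxcl3 and also the highest Cxcl10 of the 12 libraries, and Strain replicate 2 the highest Cxcl1, Cxcl9 and Cxcl10 of its group.

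Ccl3, Ccl4 and Ccl5, macrophage inflammatory proteins and a T cell and platelet chemokine that act on CCR1 and related receptors, rose in both patch groups. Their genes lie at chr11:83525778-83664683 together with Ccl6 and Ccl9. Ccl3 was at 4.85, 4.93, 5.14, 2.91 and 5.04 CPM in TD, 11.3, 22.3, 10.7 and 30.1 CPM in Strain and 11.9, 45.0 and 18.3 CPM in No Strain. No patch library reached down to the TD range. The rise was 2.02 (SE 0.41, adjusted p = 0.0139) in Strain and 2.45 (SE 0.44, adjusted p = 0.00553) in No Strain.

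Ccl4 was at 1.93, 1.93, 2.55, 1.17 and 1.84 CPM in TD, 4.92, 13.6, 6.39 and 18.5 CPM in Strain and 5.58, 15.9 and 9.25 CPM in No Strain. Strain replicate 4 was highest and the TD libraries lay below all others. Its rise was 2.52 (SE 0.43, adjusted p = 0.0077) in Strain and 2.44 (SE 0.45, adjusted p = 0.00609) in No Strain, which is 5.75-fold and 5.42-fold.

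Ccl5 was at 2.55, 2.38, 4.11, 2.54 and 2.89 CPM in TD, 5.42, 23.8, 12.9 and 6.42 CPM in Strain and 20.2, 9.31 and 9.39 CPM in No Strain. Again the TD libraries lay below all 7 patch libraries, with Strain replicate 2 and No Strain replicate 1 highest. The rise was 2.07 (SE 0.43, adjusted p = 0.0143) in Strain and 2.16 (SE 0.45, adjusted p = 0.0103) in No Strain.

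Ccl6 and Ccl9, abundant ligands of CCR1 made by mouse myeloid cells, were not called beside these neighbours. Ccl6 averaged 368 ± 172 CPM in TD, 224 ± 82.9 CPM in Strain and 269 ± 148 CPM in No Strain, and Ccl9 186 ± 59.0 CPM in TD, 113 ± 28.2 CPM in Strain and 149 ± 56.4 CPM in No Strain. Neither was called in any comparison, with fitted changes in Strain of -0.71 (SE 0.43, adjusted p = 0.293) and -0.72 (SE 0.29, adjusted p = 0.117). Ccr1, the receptor of Ccl3, Ccl5, Ccl6 and Ccl9, measured 36.0, 79.2, 54.8, 60.7 and 81.9 CPM in TD, 55.0, 97.1, 52.2 and 85.5 CPM in Strain and 75.1, 88.0 and 141 CPM in No Strain. Its groups overlapped and it was not called.

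The monocyte chemoattractant genes Ccl2, Ccl7, Ccl8 and Ccl12 lie at chr11:82035571-82116799. Ccl7 measured 32.4, 39.4, 28.6, 47.3 and 30.5 CPM in TD, 38.9, 106, 55.3 and 46.1 CPM in Strain and 55.4, 70.7 and 86.9 CPM in No Strain. It was above the TD range in the No Strain libraries, where it rose by 0.99 (SE 0.29, adjusted p = 0.0391), and overlapped TD in Strain, at 0.79 (SE 0.28, adjusted p = 0.0811). Ccl8 averaged 222 ± 73.3 CPM in TD, 495 ± 238 CPM in Strain and 361 ± 59.9 CPM in No Strain, rose in Strain by 1.16 (SE 0.31, adjusted p = 0.0339) with overlapping libraries, and was not called in No Strain, at 0.70 (SE 0.33, adjusted p = 0.165). Ccl2, the main monocyte attractant, averaged 47.1 ± 9.52 CPM in TD, 81.3 ± 65.4 CPM in Strain and 87.3 ± 29.3 CPM in No Strain and was not called, and neither was Ccl12, at 5.66 ± 0.760 CPM in TD, 9.41 ± 6.41 CPM in Strain and 9.28 ± 2.51 CPM in No Strain.

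Ccr2, which draws monocytes from the blood towards Ccl2, Ccl7 and Ccl12, measured 33.3, 44.5, 34.9, 57.1 and 56.3 CPM in TD, 78.6, 148, 91.7 and 85.5 CPM in Strain and 83.2, 64.1 and 106 CPM in No Strain. All patch libraries exceeded all TD libraries, with Strain replicate 2 highest. It rose by 1.16 (SE 0.23, adjusted p = 0.0128) in Strain and by 0.90 (SE 0.25, adjusted p = 0.0301) in No Strain. Ly6c2, which marks inflammatory monocytes, was the 1 monocyte and macrophage marker of 10 that rose.

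Ccl24 had the largest fall of the members in Strain and the second largest, after Ccl27a, in No Strain. It encodes eotaxin-2, an attractant of eosinophils through CCR3 that alternatively activated macrophages produce. Its values were 4.81, 12.6, 6.26, 4.72 and 7.89 CPM in TD, 2.29, 1.13, 1.44 and 1.34 CPM in Strain and 0.990, 1.76 and 2.14 CPM in No Strain. All TD libraries lay above all patch libraries. The change was -2.23 (SE 0.35, adjusted p = 0.00629) in Strain and -2.15 (SE 0.39, adjusted p = 0.00594) in No Strain, so that TD was 4.69-fold and 4.44-fold higher. Ccl11, eotaxin-1, fell only for the mean of the patch groups, with a change of -0.40 (SE 0.12, adjusted p = 0.0305). That call was lost in some fits that left out 1 library. Ccr3, their receptor, was at 1.32, 2.34, 1.28, 1.94 and 3.64 CPM in TD, 2.04, 2.66, 2.73 and 2.88 CPM in Strain and 2.84, 3.95 and 2.00 CPM in No Strain with overlapping groups and was not called. The eosinophil granule genes Epx and Prg2 had too few counts to be tested.

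**Figure D4:**
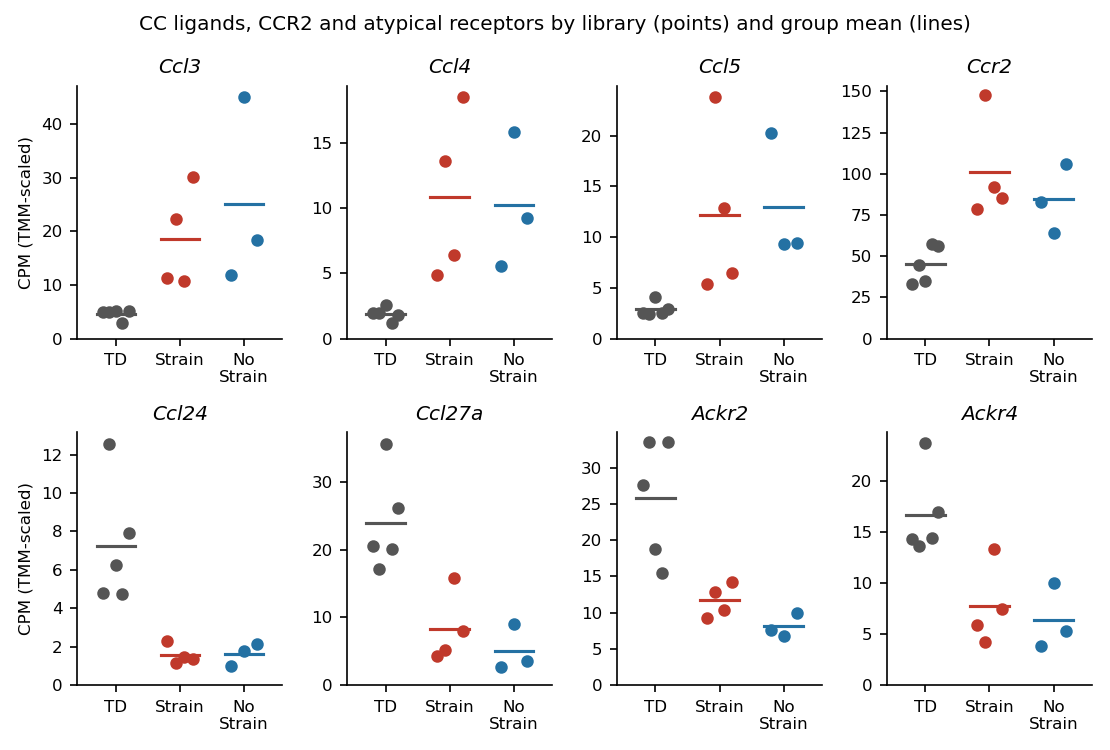
Points are CPM of single libraries on linear axes from 0 and lines are group means, for CC ligands, Ccr2 and atypical receptors in TD (grey), Strain (red) and No Strain (blue). In the upper row TD lies lowest, and in the lower row TD lies highest, without overlap in any panel.

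Cxcl16 and Cxcr6 are a ligand and receptor pair: Cxcl16 is a transmembrane chemokine and scavenger receptor of macrophages and epithelia, and Cxcr6 is carried by tissue T cells and NK cells. Cxcr6 had the smallest p of all members for the mean of the patches against TD. It was at 3.29, 2.14, 3.23, 2.46 and 2.54 CPM in TD, 14.6, 24, 12.1 and 8.72 CPM in Strain and 14.2, 13.0 and 8.46 CPM in No Strain. The lowest patch library exceeded the highest TD library. The rise was 2.44 (SE 0.28, adjusted p = 0.00245) in Strain and 2.12 (SE 0.29, adjusted p = 0.00249) in No Strain, or 5.42-fold and 4.34-fold.

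Cxcl16 was at 54.2, 59.2, 59.2, 69.7 and 55.3 CPM in TD, 104, 152, 110.1 and 79.1 CPM in Strain and 141, 127 and 162 CPM in No Strain. Here too all 7 patch libraries stood above TD. It rose by 0.90 (SE 0.16, adjusted p = 0.00848) in Strain and by 1.27 (SE 0.17, adjusted p = 0.00228) in No Strain. Reads of Zmynd15, which overlaps Cxcl16 on the other strand, may be included. Cx3cl1, the second transmembrane ligand, averaged 12.3 ± 1.64 CPM in TD, 14.6 ± 6.10 CPM in Strain and 20.2 ± 1.61 CPM in No Strain, and its receptor Cx3cr1, a gene of monocytes and macrophages, 14.6 ± 5.42 CPM in TD, 13.1 ± 7.36 CPM in Strain and 14.3 ± 3.31 CPM in No Strain. Neither was called.

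Cxcl12, made by fibroblasts and endothelium, and its receptor Cxcr4, found on most leukocytes, rose in both patch groups. Cxcl12 was at 335, 252, 227, 223 and 259.7 CPM in TD, 429, 576, 425 and 414 CPM in Strain and 336, 364 and 719 CPM in No Strain. The patch libraries lay above TD, although No Strain replicate 1 came close to its upper end. The rise was 0.83 (SE 0.22, adjusted p = 0.032) in Strain and 0.87 (SE 0.23, adjusted p = 0.0278) in No Strain. None of the 6 fibroblast markers was called beside it, and 3 of 6 endothelial markers rose.

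Cxcr4 was at 19.4, 29.9, 28.7, 26.0 and 21.7 CPM in TD, 65.1, 62.7, 49.4 and 49.7 CPM in Strain and 47.9, 58.2 and 81.0 CPM in No Strain. No values of TD and the patch groups overlapped. The rise was 1.17 (SE 0.17, adjusted p = 0.0051) in Strain and 1.31 (SE 0.18, adjusted p = 0.00253) in No Strain. Ackr3, an atypical receptor that takes up Cxcl12, was at 189, 174, 64.7, 73.1 and 179.7 CPM in TD, 145, 205, 68.4 and 232 CPM in Strain and 84.8, 93.1 and 163 CPM in No Strain. Its groups overlapped widely and it was not called, with 0.26 (SE 0.41, adjusted p = 0.72) in Strain.

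Ccl27a and Cxcl14, chemokines of resting epidermis, were lower in the patch groups. Ccl27a, a keratinocyte ligand of CCR10 on skin-homing T cells, was at 20.6, 17.2, 35.7, 20.1 and 26.2 CPM in TD, 4.22, 5.18, 15.8 and 8.0 CPM in Strain and 2.70, 9.01 and 3.58 CPM in No Strain. All patch values lay below all TD values. The change was -1.52 (SE 0.44, adjusted p = 0.0439) in Strain and -2.23 (SE 0.51, adjusted p = 0.0147) in No Strain. This count is uncertain, because 45.0% of the 50-base stretches of Ccl27a also occur in near-identical copies and its exons overlap Il11ra1 on the other strand.

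Cxcl14 was at 65.4, 59.1, 83.8, 65.9 and 62.5 CPM in TD, 27.1, 31.6, 51.1 and 30.8 CPM in Strain and 36.9, 31.9 and 55.9 CPM in No Strain. TD again lay above the patch groups. It fell in Strain, with a change of -0.94 (SE 0.21, adjusted p = 0.0181), and its change of -0.70 (SE 0.23, adjusted p = 0.0558) in No Strain was not called. Ccr10 was low, at 0.823, 1.03, 1.51, 1.25 and 1.01 CPM in TD, 0.646, 0.990, 0.662 and 0.479 CPM in Strain and 0.720, 1.07 and 0.325 CPM in No Strain, and not called. Ccl28, a mucosal ligand of CCR10 and CCR3, was the member below the filter, with 54 counts over the 12 libraries. No keratinocyte marker of 8 was called in either patch group.

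Ligands and receptors of lymphoid and dendritic cells changed in both directions. Ccl17, a dendritic cell product that attracts T cells, was at 1.28, 1.56, 2.23, 2.22 and 2.72 CPM in TD, 1.69, 1.53, 0.584 and 0.335 CPM in Strain and 0.900, 0.686 and 0.465 CPM in No Strain. It fell in No Strain, with a change of -1.54 (SE 0.48, adjusted p = 0.0463) and no overlap, and the change in Strain was -0.96 (SE 0.41, adjusted p = 0.147). Cxcl13, which organises B cells through CXCR5, was at 6.17, 18.6, 7.25, 9.21 and 13.8 CPM in TD, 9.09, 7.70, 4.09 and 2.06 CPM in Strain and 4.23, 3.86 and 3.25 CPM in No Strain. It fell in No Strain, where all libraries lay below TD, with a change of -1.54 (SE 0.48, adjusted p = 0.0477). The Strain libraries overlapped TD, and their change was -0.94 (SE 0.42, adjusted p = 0.162).

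Cxcr5, the receptor of Cxcl13, was near the floor at 0.165, 0.329, 0.239, 0.485 and 0.395 CPM in TD, 0.795, 1.44, 0.545 and 0.479 CPM in Strain and 0.540, 0.601 and 1.30 CPM in No Strain. It rose for the mean of the patches, by 1.32 (SE 0.39, adjusted p = 0.0298), and in neither group by itself. Reads of Bcl9l on the other strand may contribute. No B cell marker of 5 was called.

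Ccr9, a gut-homing receptor, was at 1.44, 2.01, 1.71, 1.78 and 2.59 CPM in TD, 4.17, 3.92, 2.96 and 2.30 CPM in Strain and 4.28, 3.30 and 2.32 CPM in No Strain. The ranges overlapped at their edge. It rose in Strain, by 0.81 (SE 0.24, adjusted p = 0.0464), and was at 0.79 (SE 0.26, adjusted p = 0.0522) in No Strain. Its exons overlap Slc6a20a on the other strand, and a noncoding gene, Gm17200, on its own strand.

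Among the other genes of this group, Ccl20, a ligand of CCR6 from inflamed epithelium, averaged 2.29 ± 1.16 CPM in TD, 3.35 ± 2.2 CPM in Strain and 11.1 ± 7.21 CPM in No Strain and rose in No Strain, by 2.27 (SE 0.62, adjusted p = 0.0294). Xcl1, a T and NK cell product that attracts cross-presenting dendritic cells, averaged 1.04 ± 0.294 CPM in TD, 1.82 ± 1.06 CPM in Strain and 2.69 ± 1.02 CPM in No Strain and rose in No Strain, by 1.37 (SE 0.43, adjusted p = 0.0476). Ccr7, which guides dendritic cells to lymph vessels, rose for the mean of the patches, by 0.79 (SE 0.24, adjusted p = 0.034). Ccl19, Ccl22, Ccl25, Ccr6 and Xcr1 were not called in any comparison. Among 7 dendritic and Langerhans cell markers 1, Cd209a, fell in No Strain and none was called in Strain.

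Of the atypical receptors, Ackr2, a scavenger of inflammatory CC chemokines on lymphatic endothelium, was at 27.6, 33.6, 18.7, 15.5 and 33.5 CPM in TD, 9.24, 12.8, 10.4 and 14.3 CPM in Strain and 7.61, 6.82 and 9.94 CPM in No Strain. TD lay above all patch libraries, and No Strain held the lowest value. It fell in both patch groups, with a change of -1.14 (SE 0.24, adjusted p = 0.016) in Strain and -1.67 (SE 0.28, adjusted p = 0.0044) in No Strain. Inflammatory CC ligands did not move together beside it. Ccl3, Ccl4 and Ccl5 rose in both patch groups, Ccl7 and Ccl20 in No Strain and Ccl8 in Strain. Ccl2, Ccl6, Ccl9, Ccl12 and Ccl22 were not called. Ccl24 fell in both patch groups, Ccl17 in No Strain and Ccl11 for the mean of the patches. A link between Ackr2 and these ligands was not tested.

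Ackr4, which takes up Ccl19 and Ccl25, was at 14.3, 13.6, 23.8, 14.5 and 16.9 CPM in TD, 5.91, 4.23, 13.4 and 7.43 CPM in Strain and 3.83, 10.00 and 5.25 CPM in No Strain. All patch values lay below TD. The fall was called in No Strain, at -1.38 (SE 0.40, adjusted p = 0.0347), and not in Strain, at -1.10 (SE 0.35, adjusted p = 0.062). Acad11 overlaps its exons on the other strand. Ackr1, which binds many chemokines on venules and red cells, averaged 15.4 ± 4.00 CPM in TD, 10.6 ± 2.85 CPM in Strain and 9.6 ± 2.81 CPM in No Strain and was not called. Ackr1 shares exon sequence with Cadm3 on its own strand.

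Levels of different members can be compared per length of exon, in CPM per kb. Ccl8 was the most abundant member in all 3 groups, with 434 ± 143 CPM per kb in TD (SD, n = 5), followed by Ccl6 with 205 ± 95.5 CPM per kb. Cxcl9 was at rank 28 of 51 in TD with 3.47 ± 1.33 CPM per kb, at rank 8 in Strain with 41.2 ± 43.0 CPM per kb and at rank 9 in No Strain with 57.7 ± 39.2 CPM per kb. Cxcl2 moved from rank 20 to ranks 9 and 7. Receptors ranged from Ackr3, at 40.6 ± 18.4 CPM per kb in TD, down to Cxcr5, at 0.0967 ± 0.0378 CPM per kb. SDs of neighbours in this order are wide, and neighbouring ranks were not tested.

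**Figure D5:**
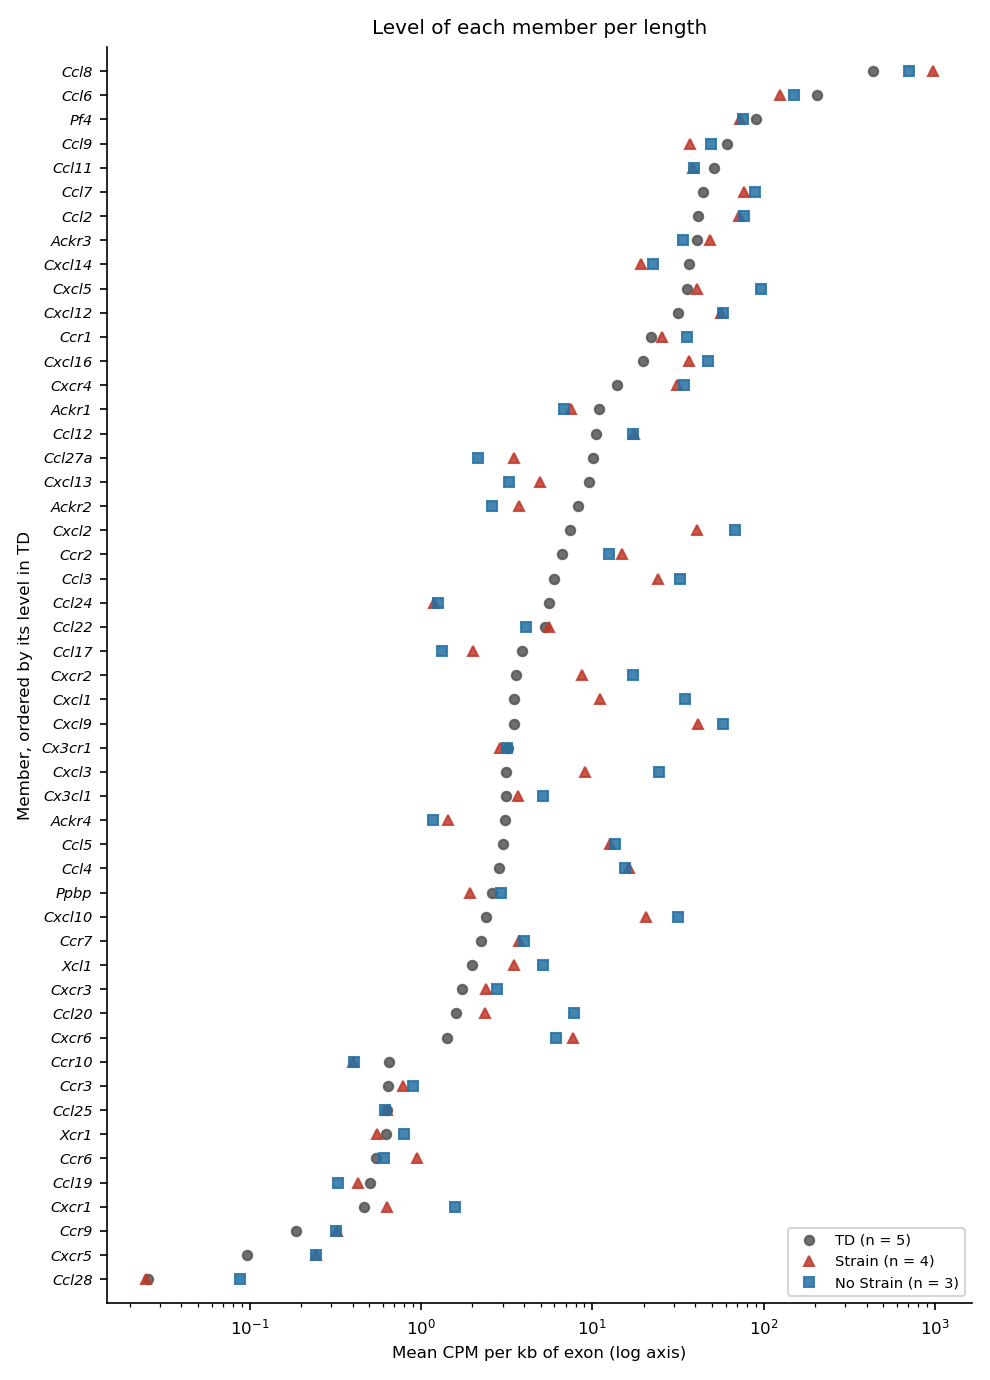
Rows are the 51 members ordered by their TD level, and symbols give the group means of CPM per kb of exon on a log axis, for TD (circles), Strain (triangles) and No Strain (squares). Ccl8 and Ccl6 lie at the top in all 3 groups, and the patch symbols of Cxcl9, Cxcl10, Cxcl2 and Cxcl1 lie far to the right of TD.

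The direct comparison of Strain with No Strain asks what the strain of the patch adds. None of the 50 tested members was called by edgeR, and 3 had an unadjusted p under 0.05, beside 5.61% of all genes tested. DESeq2 and limma-voom also called 0 members. The median of the members was -0.098, beside 0.0084 over all genes. Libraries did not overlap for Cxcl1 and Cxcr2 (5.62% of all genes had no overlap), both lower in Strain. The difference was -1.66 (95% interval -2.86 to -0.45, adjusted p = 0.872) for Cxcl1 and -0.98 (95% interval -1.67 to -0.29, adjusted p = 0.872) for Cxcr2. Summed neutrophil markers differed by -0.36 (exact p = 0.743, with 0.0286 the smallest possible).

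Intervals of other ligands were wide. For Cxcl9 the difference was -0.48 (95% interval -2.24 to 1.27, adjusted p = 0.971), for Ccl20 -1.72 (95% interval -3.16 to -0.29, adjusted p = 0.872) and for Cxcl3 -1.43 (95% interval -2.92 to 0.053, adjusted p = 0.872). Narrower intervals were found for Cxcr4, at -0.14 (95% interval -0.56 to 0.29, adjusted p = 0.966), and Cxcl12, at -0.037 (95% interval -0.58 to 0.51, adjusted p = 0.998). Changes that were called in 1 patch group and not in the other, such as those of Cxcl1, Ccl8, Cxcl14 and Ackr4, are therefore not shown to differ between the patches.

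Of 16 cytokines known to induce chemokine genes 8 rose in Strain (Il1a, Il1b, Tnf, Il17a, Il17f, Ifng, Csf3 and Osm) and none fell, and 10 rose in No Strain, with Il6 and Csf2 in addition, beside 12.6% and 17.8% of all genes called in either direction. For the mean of the patches 11 rose and 1, Il13, fell. Il1a, an alarmin of keratinocytes and myeloid cells, averaged 3.78 ± 1.14 CPM in TD, 10.8 ± 2.76 CPM in Strain and 22.4 ± 3.71 CPM in No Strain and rose by 1.51 (SE 0.23, adjusted p = 0.00539) in Strain and 2.56 (SE 0.24, adjusted p = 0.000439) in No Strain. Csf3, the neutrophil growth factor, averaged 0.261 ± 0.256 CPM in TD, 3.69 ± 1.72 CPM in Strain and 12.1 ± 10.4 CPM in No Strain. It rose by 3.78 (SE 0.72, adjusted p = 0.0109) and 5.50 (SE 0.73, adjusted p = 0.00228). Its TD level was near the floor of detection, so the size of these rises is uncertain. The median change over the list was 1.49 in Strain and 2.43 in No Strain. This list and those below were chosen with earlier results of these data known, so their counts are not independent support.

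Of 16 regulators of NF-kB, STAT signalling and mRNA decay 4 rose in Strain and 9 in No Strain, and none fell. The share of all genes called was 12.6% and 17.8%. Nfkbia, the inhibitor induced by NF-kB itself, averaged 96.9 ± 13.7 CPM in TD, 192 ± 65.8 CPM in Strain and 239 ± 35.0 CPM in No Strain and rose by 0.98 (SE 0.20, adjusted p = 0.0126) and 1.30 (SE 0.21, adjusted p = 0.0039). Zfp36, which destabilises chemokine and cytokine mRNA, rose in No Strain, by 0.77 (SE 0.13, adjusted p = 0.00458), and was at 0.35 (SE 0.12, adjusted p = 0.085) in Strain. The list medians were 0.52 and 0.73.

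Of 23 signal transduction genes downstream of the receptors 6 rose in Strain, and 7 rose and 1 (Plcb3) fell in No Strain. Gngt2, a G protein gamma subunit, rose by 0.95 (SE 0.16, adjusted p = 0.00732) and 0.94 (SE 0.17, adjusted p = 0.00555), and Fgr, a Src family kinase of myeloid cells, by 1.16 (SE 0.25, adjusted p = 0.016) and 1.42 (SE 0.27, adjusted p = 0.0065). Of 12 arrestins, receptor kinases and RGS proteins, which end receptor signalling, 1 rose and 1 fell in Strain, and 3 rose and 1 fell in No Strain. Both lists stand beside 12.6% and 17.8% of all genes called in Strain and No Strain. Rgs18, found in platelets and myeloid cells, fell with changes of -0.88 (SE 0.19, adjusted p = 0.015) and -1.07 (SE 0.21, adjusted p = 0.00748), and Grk3, a receptor kinase, rose by 0.57 (SE 0.15, adjusted p = 0.0311) and 0.54 (SE 0.16, adjusted p = 0.0407).

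Of 13 tested proteases and anchors that cleave or hold chemokines 3 rose in Strain, and 2 rose and 1 (Dpp4) fell in No Strain. Mmp8, a neutrophil collagenase that is also 1 of the neutrophil markers, rose by 2.12 (SE 0.37, adjusted p = 0.00856) and 3.48 (SE 0.39, adjusted p = 0.00111), and Mmp9 by 1.02 (SE 0.26, adjusted p = 0.0282) and 1.52 (SE 0.28, adjusted p = 0.00582). Of 10 receptors for other chemoattractants 4 rose in Strain and 3 in No Strain. Fpr2, a formyl peptide receptor, averaged 5.30 ± 1.13 CPM in TD, 32.0 ± 20.5 CPM in Strain and 36.5 ± 11.8 CPM in No Strain and rose by 2.59 (SE 0.40, adjusted p = 0.00582) and 2.78 (SE 0.42, adjusted p = 0.00323), and Ltb4r1, the leukotriene B4 receptor, rose by 0.66 (SE 0.12, adjusted p = 0.00965) and 0.91 (SE 0.13, adjusted p = 0.00253). The arrestin and protease lists hold only 12 and 13 tested genes, so each single call is a large part of their share. Beside the 12.6% and 17.8% of all genes called in Strain and No Strain, nothing is read from their counts. No gene of these 6 lists was called between Strain and No Strain.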

How the data were processed

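Poly(A) RNA of 12 wounds was sequenced. The authors deposited 1 table for each library, whose values are unnormalised read counts of Ensembl genes, per the file headers. The submitters' processing notes name bcl2fastq 2.17, FastQC, cutadapt, STAR, featureCounts and DESeq2 and the build GRCm38. Annotation release, strand setting and the rule for reads that fit several genes are not given in the sources used here, so genes with near copies or overlapping exons are uncertain.

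Groups came from the group label. Symbols, coordinates and exon lengths came from GENCODE M21 (GRCm38), in which 54165 of 54232 identifiers had a symbol. All rows named an Ensembl gene.

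Genes passing filterByExpr (minimum count 10, minimum total 15) entered 1 quasi-likelihood fit of the 12 libraries in edgeR 4.0.16 (R 4.3.3) with TMM scaling and robust estimates of the spread and with Benjamini-Hochberg adjustment of the p-values over 18618 genes. Intervals used the t distribution with the degrees of freedom of the test. Log2 CPM used a prior count of 2. Marker sums were compared by two-sided exact permutation tests. The fit was tested on simulated data. Alternatives were DESeq2 1.42.0, its size factors, library totals alone, limma-voom 3.58.1 with sample weights, other filters, only the groups compared, title letter or muscle markers as covariates, a minimum log2 change of 1, and each library left out.

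Values in every library are given for the 24 members with the smallest p for the mean of the patches among 29 called in any comparison with TD, and for 6 receptors of their ligands. Pathway lists name the 2 called genes with the smallest p. The members and lists were chosen with earlier results of these data known. P-values measure the spread between these libraries, which may share mice. Total counts of 20354677 to 25059371 set the precision of low members, and the floor covers counting error only. A chi-square comparison of the 19 pairs of libraries of 1 group gave 9.53 to 75.0 per degree of freedom. No library was therefore a copy of another in its group, and pairs between groups were not compared.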

Additional observations from a re-analysis of the deposited data

Results flagged for a closer look

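In groups of 4 or 5 libraries, 66 sets of values were screened for a library that stood apart from the others, and 4 were found, where chance gives about 1 in 20, or 3.3. Cxcr2 was lower in Strain replicate 3, at log2 CPM 4.10, than in the other Strain libraries, the next of which was at 4.85. Ccl3 was lower in TD replicate 4, at log2 CPM 1.58, than in the rest of TD, which began at 2.30. Cxcl12 was higher in Strain replicate 2, at log2 CPM 9.17, than in the rest of its group, which ended at 8.75. The summed neutrophil markers were higher in TD replicate 1, at log2 CPM 10.72, than in the other TD libraries, which ended at 9.31.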

How the results depend on the processing

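No called member reversed its direction under any alternative that was run. Of the members called in Strain 10 of 18, in No Strain 12 of 23 and for the mean of the patches 19 of 28 were called in all 12 fits that left out 1 library. Left-out libraries gave 10 (without Strain replicate 2) to 19 called members in Strain. With skeletal muscle markers as a covariate 0, 9 and 0 members were called in Strain, No Strain and the mean of the patches. With the title letter 9 members were called in Strain, beside 798 of 18618 genes. With no filter on low counts 15 were called in No Strain, beside 2381 of 35687 genes. Scaling by library totals alone called 15 members higher and 7 lower in No Strain and 19 and 9 for the mean of the patches. Over all genes it moved the share of higher calls from 52.7% to 38.1% and from 50.5% to 40.1%. Between Strain and No Strain DESeq2 called 29 genes, none of them a member, and edgeR and limma-voom called 0.

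Leaving out libraries moved the log2 difference of summed neutrophil markers from 1.53 to 2.64 in Strain and from 2.166 to 2.84 in No Strain against TD. For the summed level of neutrophil markers, Strain against TD, the unadjusted exact p reached 0.0857 (above 0.05 without Strain replicate 1 or 2 or TD replicate 2, 3, 4 or 5). For the summed level of neutrophil markers, No Strain against TD, it reached 0.0571 (without TD replicate 2, 3, 4 or 5). With 1 TD library left out the smallest p possible there is 0.0286, so crossing 0.05 says little. Between Strain and No Strain the log2 difference of neutrophil markers moved from -0.91 to 0.21, the last without Strain replicate 3. For monocyte and macrophage markers it moved from -0.23 to 0.097, the last without No Strain replicate 3. For muscle markers in No Strain against TD it moved from -1.06 (exact p = 0.0476, the smallest possible there, without No Strain replicate 3) to -0.48. It was -0.94 (exact p = 0.0286, again the smallest possible) without TD replicate 5. Why these values moved was not tested. No paired analysis was possible because no title number occurs in more than 1 group. Depth limits Ccl28, Ccl19, Cxcr5, Ccr10 and Cxcr1, which had few counts.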
